A study of Homo sapiens with 12 samples.

Results

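Amino acid transporters of 7 solute carrier families were examined in cultures of HEYA8, an established line of human ovarian cancer cells, kept for 48 h in vehicle or colforsin daropate. Members were the protein-coding genes whose symbol begins with SLC1A, SLC3A, SLC6A, SLC7A, SLC36A, SLC38A or SLC43A, apart from SLC7A11, with a value more than 1 above the lowest value of the table in at least 3 libraries. Of 21207 genes in the table, 34 protein-coding entries carried such a symbol and 28 passed the limit on low values. SLC7A6OS, among the 28, shares only its symbol with the family: it lies opposite SLC7A6 and encodes no carrier, so 27 transporters are described and SLC7A6OS is given apart. The study gave HEYA8 cells 0, 1, 5 or 10 µM of the drug, a water-soluble forskolin derivative that activates adenylyl cyclase, and asked about its use against MYC-driven ovarian carcinoma. Each of the 4 groups holds 3 libraries, whose titles carry the number 6, 8 or 11. The labels do not say what this number marks, and the series' design text calls the libraries biological replicates. All 12 libraries come from this 1 cell line, with no genetic change stated in the labels.

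These carriers move amino acids and a few related solutes across the plasma membrane or out of the lysosome. Sodium-coupled carriers such as SLC38A2 build up a solute inside the cell, exchangers such as SLC7A5 trade one amino acid for another, and the CAT carriers SLC7A1 and SLC7A2 let arginine and lysine in along the membrane potential. SLC7A5, SLC7A6 and SLC7A7 reach the membrane only when bound to the heavy chain SLC3A2. In tumour cells the glutamine carrier SLC1A5 and the leucine carrier SLC7A5 are known for supplying growth and mTORC1 signalling, and several of these genes are textbook targets of ATF4, which acts when amino acids run short.

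Values are on the authors' variance-stabilised scale, which follows log2 for abundant genes and flattens to a floor of 4.86. They were rounded to steps of 0.1 from 10 up, so small differences of abundant carriers rest on 1 or a few steps. The recovered depth on genes ranged from 24.0 megareads, in the vehicle library of number 6, through 31.2 to 48.6 elsewhere. Folds below are ratios of recovered normalised counts. The markers PAX8, KRT7, KRT8, KRT18, VIM, FN1, CDH2 and ZEB1 were between 11 and 21 in all 12 libraries, and the leukocyte markers PTPRC and CD68 were over the limit in 1 library and in 0. Of the other ovarian and epithelial markers, WT1 was at 6.89 to 7.73 and MSLN at 7.29 to 7.86. EPCAM was under the limit of 5.86 in all 12, and MUC16 had no entry. The endothelial marker CDH5 was at 10.8 to 13.1, VWF at 6.83 to 8.05 and PECAM1 at 5.57 to 7.39, over the limit in 9 libraries. Fewer cells of a type and less RNA per cell cannot be told apart in such bulk samples.

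The transporters spanned a 1445-fold range of transcript level per length in vehicle. On the scale of normalised reads per kilobase of exon (GENCODE 29 models, mean of 3 libraries), the sodium-coupled glutamine carrier SLC38A2 was first at 2655. It was followed by the heavy chain SLC3A2 at 1682, SLC1A5 at 1512, SLC38A1 at 1293, SLC7A1 at 1112, SLC7A5 at 762 and SLC7A2 at 578. SLC38A2 stood above SLC3A2 in every vehicle library, whereas SLC3A2 (1033 to 2076) and SLC1A5 (1212 to 1721) overlapped. The serotonin carrier SLC6A4, which is no amino acid transporter in function, was last at 1.84. By the mean at 10 µM, SLC7A2 moved from the seventh to the fourth place, at 1504 reads per kilobase, and SLC6A15 from the eighth to the thirteenth. In numbers 6, 8 and 11 SLC7A2 was then at 2214, 1029 and 1268.5, and SLC7A1 at 1398, 1499 and 1499. SLC7A2 thus stood above SLC7A1 in number 6 alone. The median vehicle value of the 27 was 10.5 on the stabilised scale, against 9.03 over the 17767 genes tested.

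**Figure D1:**
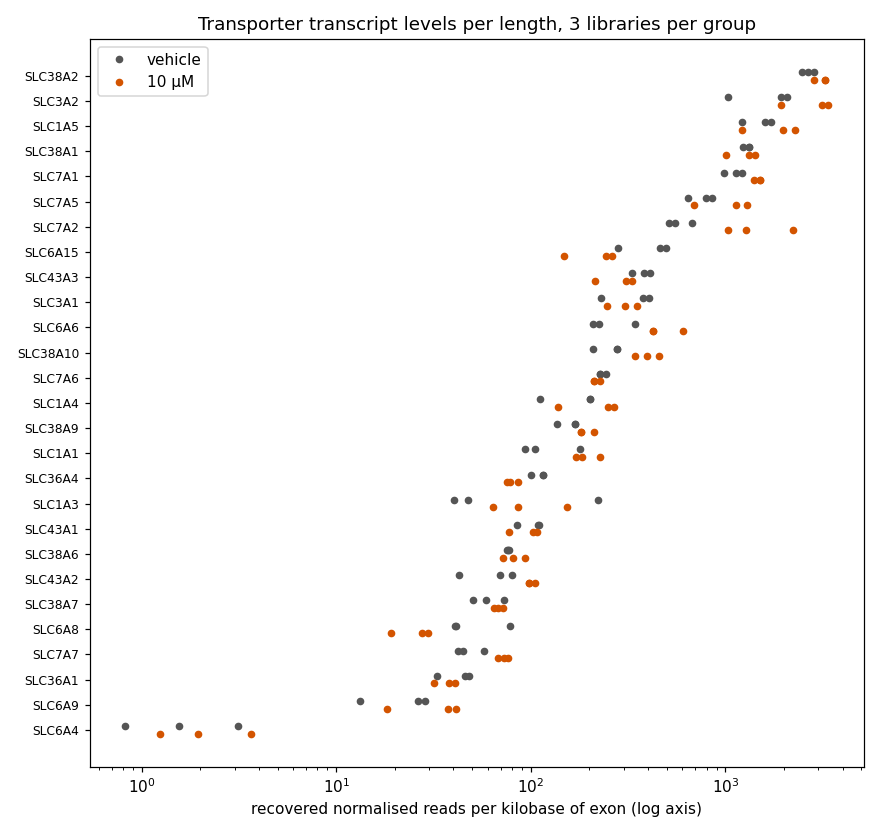
Each dot is 1 library, with recovered normalised reads per kilobase of exon on a log axis, for the 27 transporters in order of their vehicle mean. Grey dots are vehicle and orange dots 10 µM. SLC7A2, SLC6A6 and SLC38A10 sit further right at 10 µM, SLC6A15 and SLC6A8 further left.

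The 6 entries under the limit were the GABA and betaine carriers SLC6A12 and SLC6A13, the neutral carriers SLC6A17 and SLC7A8, and the sodium-coupled SLC38A4 and SLC38A5. SLC6A4, just inside, was over the limit in 4 libraries with a highest value of 6.17. SLC6A17, just outside, was over it in 2, with 6.15 as its highest. Another 25 of the 58 carriers named in the substrate classes had no entry in the table and were not analysed here.

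At 10 µM limma called 6 of the 27 transporters higher than vehicle (22.2%, against 11.2% of all genes tested) and 3 lower (11.1%, against 11.4%), at an adjusted p under 0.05. The 6 were the cationic carriers SLC7A2, SLC7A1 and SLC7A7, the taurine carrier SLC6A6, the large neutral carrier SLC43A2 and SLC38A10. The 3 were the proton-coupled SLC36A4, the branched-chain and proline carrier SLC6A15 and the creatine carrier SLC6A8. At 5 µM, 5 were higher (18.5%, against 7.67%) and 2 lower (7.41%, against 7.44%), the former SLC7A2, SLC7A1, SLC7A7, SLC43A2 and SLC38A10, the latter SLC36A4 and SLC6A8. The 5 higher calls became 0 without 5 µM library 6, 2 without 5 µM library 8 or 11 or vehicle library 8, and 3 without vehicle library 6. The 2 lower calls became 1 without vehicle library 6 or 5 µM library 6 or 8. At 10 µM, 3 higher calls were left without vehicle library 8 and 1 lower call without 10 µM library 6. At 1 µM limma called 0 in either direction, against 1.18% of all genes higher and 0.613% lower. There, 5 transporters had an unadjusted p under 0.05, and limma on voom-modelled recovered counts also called 0. Without vehicle library 6, SLC1A1 and SLC7A7 were called higher there. The 3 dose comparisons share their vehicle libraries. The median difference of the 27 was 0.10, 0.27 and 0.23 at 1, 5 and 10 µM, and that of all genes tested lay within 0.01 of 0 at each dose.

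Libraries with the same number deviated together, so the same comparisons were also fitted with the label number beside the dose, as a replicate block. The paired fit and the unpaired fit named below both use all 12 libraries. In the paired fit 13 transporters were higher (48.1%, against 18.7% of all genes) and 4 lower (14.8%, against 19.7%) at 10 µM. At 5 µM the counts were again 13 and 4, with 15.3% of all genes called on each side. At 1 µM they were 9 higher (33.3%, against 6.76%) and 2 lower (7.41%, against 5.26%). All 7 calls at 5 µM and all 9 at 10 µM of the fit without the number were kept. Added at 10 µM were SLC1A1, SLC1A4, SLC1A5, SLC38A9, SLC3A2, SLC6A9 and SLC7A5 on the higher side and SLC43A3 on the lower. Values did not overlap between 10 µM and vehicle for 7 higher transporters (17% of all genes) and 3 lower ones (16.8%). Without the block, leaving out number 8 left 0 calls at 10 µM (3.37% of all genes) and leaving out number 11 left 0 (5.41%), with an unadjusted p under 0.05 in 8 transporters either time. Leaving out number 6, also without the block, gave 14 higher and 5 lower (33.4% of all genes called in either direction). These 19 held 16 of the 17 calls of the paired fit, all but SLC38A9, and added SLC1A3, SLC38A2 and SLC3A1. At 5 µM, leaving out number 6 gave 15 higher (against 14% of all genes) and 4 lower (13.8%), with all 17 calls of the paired fit. At 1 µM it gave 11 higher (6.75%) and 1 lower (5.48%), with 10 of the 11 calls of the paired fit, all but SLC36A4.

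**Figure D2:**
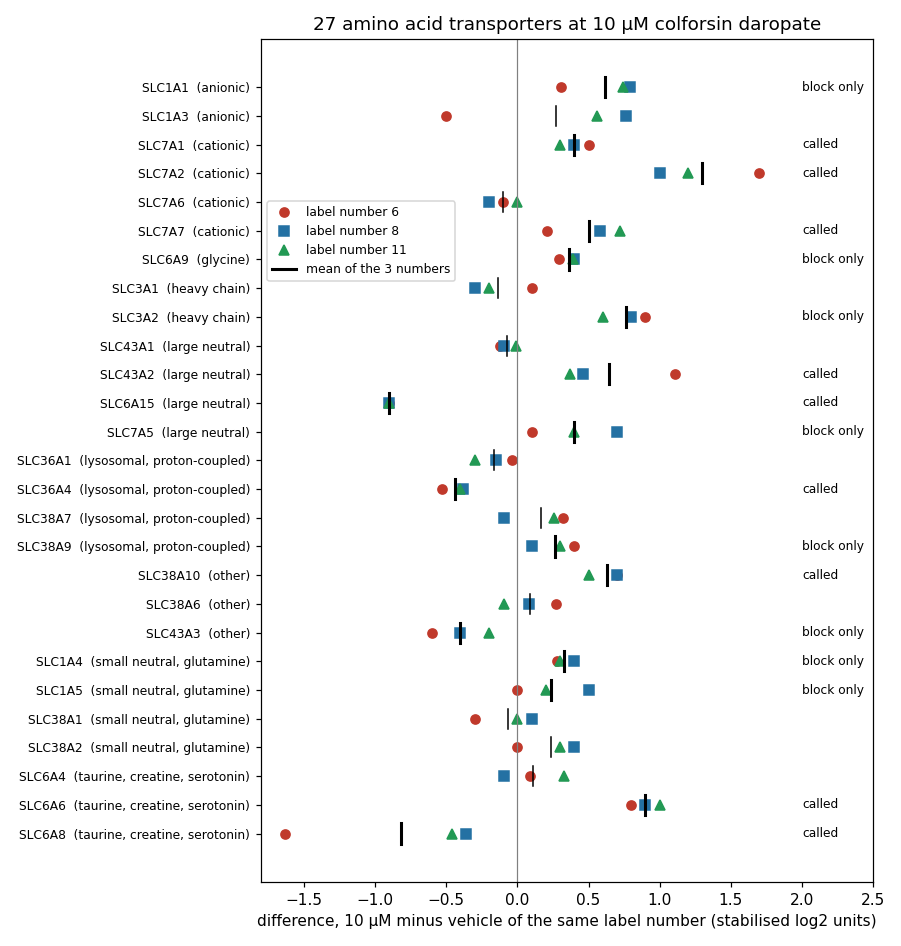
Differences between the 10 µM and the vehicle library of the same number, in stabilised log2 units, for 27 transporters grouped by substrate. Red circles, blue squares and green triangles are numbers 6, 8 and 11, black bars their mean, and the right margin says whether the transporter was called without the block or only with it. SLC6A15 lies at -0.9 in all 3 numbers, and SLC7A2 between 1.0 and 1.7.

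Transporters of cationic amino acids were called higher in 3 of 4 cases at 5 µM (7.67% of all genes) and at 10 µM (11.2%). The member with the largest difference among the 27 was SLC7A2 (ENSG00000003989.18), an arginine and lysine carrier whose liver isoform has low affinity. Its stabilised values at numbers 6, 8 and 11 were 12.4, 12 and 12.1 in vehicle and 13.3, 12.7 and 12.8 at 1 µM. They were 13.7, 13.1 and 13.2 at 5 µM and 14.1, 13 and 13.3 at 10 µM. Every treated library was above every vehicle library, and number 6 was the highest at each dose. SLC7A2 rose by 1.17 ± 0.26 (SE) at 5 µM (adjusted p = 0.0122) and by 1.30 ± 0.26 at 10 µM (adjusted p = 0.00454), from 4572 ± 687 to 11888 ± 4953 normalised counts (SD, n = 3), or 2.60-fold. Leaving out the 5 µM library of number 6 took the 5 µM call to an adjusted p of 0.0514. At 1 µM the difference of 0.77 passed in the paired fit (adjusted p = 5.85e-04) but not in the unpaired one.

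SLC7A1 (ENSG00000139514.13, chromosome 13, 29509410 to 29595688, minus strand, GENCODE 29 on GRCh38), the widely expressed arginine carrier, was at 12.9, 13.1 and 13.2 in vehicle and at 13.1, 13.4 and 13.4 at 1 µM. Its values were 13.4, 13.5 and 13.4 at 5 µM and 13.4, 13.5 and 13.5 at 10 µM. The vehicle range ended below the ranges at 5 and 10 µM. SLC7A1 rose by 0.37 ± 0.10 at 5 µM (adjusted p = 0.0294) and by 0.40 ± 0.10 at 10 µM (adjusted p = 0.0141), 1.32-fold in counts. The 5 µM call was lost without vehicle library 6 or 8 or any 5 µM library, with an adjusted p of at most 0.0977. The 1 µM difference of 0.23 passed in the paired fit (adjusted p = 0.0415) but not in the unpaired one.

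SLC7A7 (ENSG00000155465.20, chromosome 14, 22773222 to 22829820, minus strand) exports cationic amino acids in exchange for neutral ones and sodium. It stood at 8.45, 8.16 and 8.08 in vehicle, at 8.62, 8.88 and 8.48 at 1 µM, at 8.91, 8.78 and 8.67 at 5 µM and at 8.66, 8.74 and 8.80 at 10 µM. All treated libraries exceeded all vehicle libraries. SLC7A7 rose by 0.56 ± 0.13 at 5 µM (adjusted p = 0.0133) and by 0.50 ± 0.13 at 10 µM (adjusted p = 0.0152, 1.5-fold). Either call was lost without vehicle library 8 or 11, the 5 µM call also without 5 µM library 6 and the 10 µM call without 10 µM library 11 (adjusted p at most 0.063). In the paired fit the 1 µM difference of 0.43 passed as well (adjusted p = 0.0289). Its relative SLC7A6, which exchanges the same substrates, remained between 10.6 and 10.9 in all 12 libraries, and its 10 µM difference of -0.10 had a 95% interval of -0.25 to 0.05. SLC7A6 overlaps SLC7A6OS on the other strand over 17321 bp, and the strand setting of the counting is not given in the sources used here, so reads of the pair may be mixed. SLC7A6OS fell by 0.30 at 5 µM (adjusted p = 0.0312), and at 10 µM its difference of -0.23 passed in the paired fit (adjusted p = 0.0185) but not in the unpaired one.

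Among carriers of taurine, creatine and monoamines, SLC6A6 rose and SLC6A8 fell. SLC6A6 (ENSG00000131389.18, chromosome 3, 14402576 to 14489349, plus strand) takes up taurine, an osmolyte. Its values were 11.5, 10.9 and 10.8 in vehicle, 11.6, 10.8 and 10.9 at 1 µM, 11.8, 11.4 and 11.2 at 5 µM and 12.3, 11.8 and 11.8 at 10 µM. The 1 µM libraries lay within 0.1 of the vehicle library of the same number, and the 10 µM libraries were 0.8 to 1.0 above it. SLC6A6 rose by 0.90 ± 0.25 at 10 µM (adjusted p = 0.0225), from 2139 ± 609 to 4000 ± 853 normalised counts, or 1.87-fold. That call was lost without vehicle library 8 or 11 or without 10 µM library 6 (adjusted p at most 0.0897). The 5 µM difference of 0.40 passed in the paired fit (adjusted p = 0.00161) but not in the unpaired one.

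SLC6A8 (ENSG00000130821.17, chromosome X, 153688099 to 153696593, plus strand) imports creatine. Its values were 8.93, 8.12 and 8.14 in vehicle, 8.18, 7.93 and 7.94 at 1 µM, 7.52, 7.62 and 7.84 at 5 µM and 7.30, 7.76 and 7.68 at 10 µM. Number 6 was the highest library in vehicle and the lowest at 10 µM, with a difference of -1.63 against -0.36 and -0.46 in numbers 8 and 11. SLC6A8 fell by 0.74 ± 0.21 at 5 µM (adjusted p = 0.0333) and by 0.82 ± 0.21 at 10 µM (adjusted p = 0.0151), 2.11-fold in counts. The 10 µM call was lost without 10 µM library 6 (adjusted p = 0.0614), and the 5 µM call without vehicle library 6 or 5 µM library 6 or 8 (adjusted p at most 0.105). SLC6A4, at 5.50 to 6.17 in all libraries, gave no call.

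**Figure D3:**
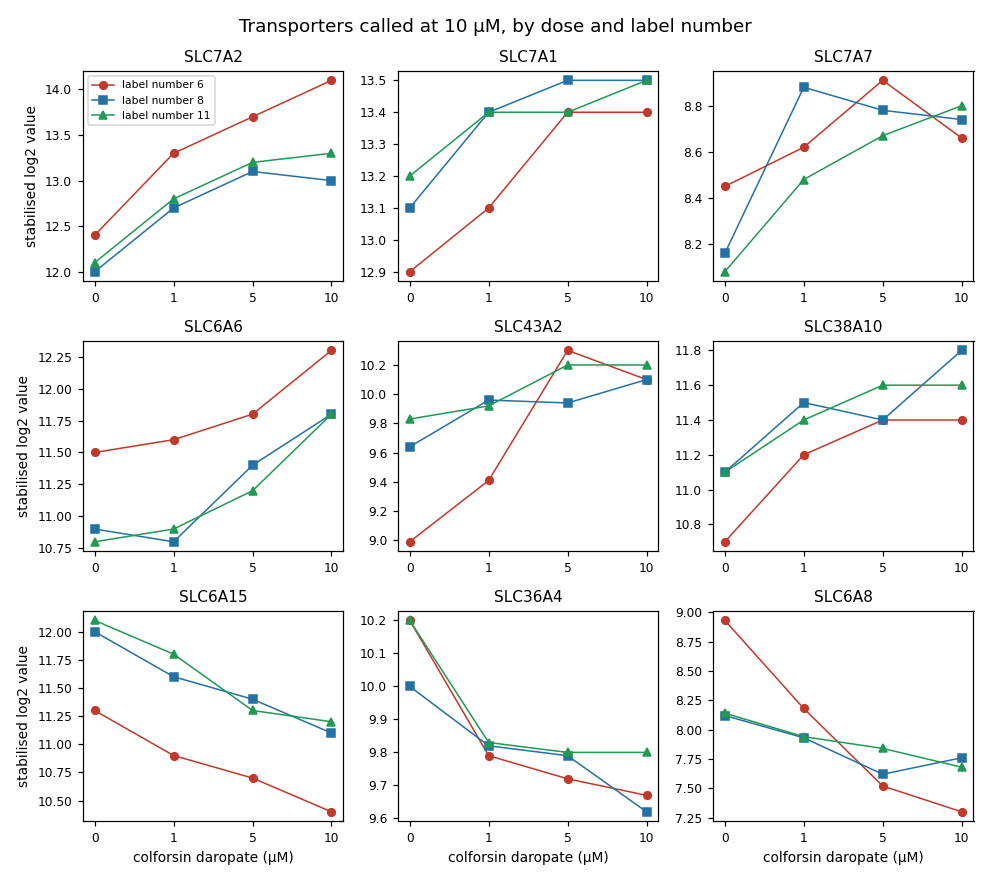
Stabilised log2 values of the 9 transporters called at 10 µM, by dose (evenly spaced positions) and label number (red circles 6, blue squares 8, green triangles 11). Each panel has its own vertical scale, which does not start at 0. The 3 lines run side by side in SLC6A15, whereas SLC6A8 has number 6 highest in vehicle and lowest at 10 µM.

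Carriers of large neutral amino acids moved in opposite directions. SLC43A2 (ENSG00000167703.15, chromosome 17, 1569267 to 1628886, minus strand), a uniporter of branched-chain amino acids, phenylalanine and methionine, had values of 8.99, 9.64 and 9.83 in vehicle and 9.41, 9.96 and 9.92 at 1 µM. At 5 µM they were 10.3, 9.94 and 10.2, and at 10 µM 10.1, 10.1 and 10.2. The 5 and 10 µM libraries lay above the vehicle range. Differences from the vehicle library of the same number were largest in number 6. At 5 µM they were 1.31 in number 6 and 0.30 and 0.37 in numbers 8 and 11. At 10 µM they were 1.11, 0.46 and 0.37. SLC43A2 rose by 0.66 ± 0.20 at 5 µM (adjusted p = 0.0483) and by 0.65 ± 0.20 at 10 µM (adjusted p = 0.0393, 1.56-fold). These calls lie near the threshold: the 10 µM call was lost in 6 of 12 single omissions (vehicle 6 or 8, 5 µM 11, any 10 µM library; adjusted p at most 0.101). The 5 µM call was lost in 10 of 12, all but vehicle 11 and 1 µM 6 (at most 0.145).

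SLC6A15 (ENSG00000072041.18, chromosome 12, 84859488 to 84913615, minus strand) is a sodium-coupled carrier of branched-chain amino acids and proline, best known from neurons. Its values were 11.3, 12 and 12.1 in vehicle, 10.9, 11.6 and 11.8 at 1 µM, 10.7, 11.4 and 11.3 at 5 µM and 10.4, 11.1 and 11.2 at 10 µM. Within each number the value dropped at every step of dose, and the 10 µM library was 0.9 below vehicle in all 3. Over all libraries vehicle (11.3 to 12.1) and 10 µM (10.4 to 11.2) did not overlap. SLC6A15 fell by 0.90 ± 0.30 at 10 µM (adjusted p = 0.0492; paired fit 1.01e-06), from 3611 ± 1005 to 1908 ± 538 normalised counts, 1.89-fold. Without the number in the fit the call was lost in 9 of 12 single omissions, all but vehicle 6, 1 µM 6 and 5 µM 6 (adjusted p at most 0.18). Its 1 µM difference of -0.37 and its 5 µM difference of -0.67 passed in the paired fit (adjusted p = 0.00418 and 1.55e-05) but not in the unpaired one.

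The leucine exchanger SLC7A5 (ENSG00000103257.9, chromosome 16, 87830023 to 87869488, minus strand) and its heavy chain SLC3A2 (ENSG00000168003.18, chromosome 11, 62856102 to 62888875, plus strand) were called at every dose in the paired fit and without number 6, but not in the unpaired fit of all libraries. SLC7A5 had values of 11.6, 11.9 and 12 in vehicle, 11.9, 12.5 and 12.5 at 1 µM, 11.9, 12.4 and 12.4 at 5 µM and 11.7, 12.6 and 12.4 at 10 µM. Its 10 µM difference was 0.40 (adjusted p = 0.259, paired fit 0.00331), made up of 0.1 in number 6 and 0.7 and 0.4 in numbers 8 and 11. SLC3A2 had 12.4, 13.3 and 13.4 in vehicle, 12.8, 13.7 and 13.7 at 1 µM, 13.4, 13.9 and 13.9 at 5 µM and 13.3, 14.1 and 14 at 10 µM. In SLC3A2 every treated library exceeded the vehicle library of its own number, while number 6 lay below the others at each dose. Its 10 µM difference was 0.77 (adjusted p = 0.109, paired fit 2.77e-05), 1.68-fold in counts. The other heavy chain, SLC3A1, partner of the cystine carrier SLC7A9, was between 10.6 and 11.4 and passed in neither fit, though without number 6 it was called lower at 10 µM (-0.25, adjusted p = 0.0452). It overlaps another protein-coding entry on its own strand and PREPL on the other. SLC43A1, a relative of SLC43A2, also passed in neither, with a 10 µM difference of -0.07 (95% interval -0.54 to 0.39).

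Carriers of small neutral amino acids and glutamine gave 0 calls in 4 by limma without the label number (0 at an unadjusted p under 0.05), and 2 of 4, the alanine-serine-cysteine exchangers SLC1A4 and SLC1A5, in the paired fit at every dose (6.76%, 15.3% and 18.7% of all genes higher at 1, 5 and 10 µM). SLC1A5 (ENSG00000105281.12, chromosome 19, 46774883 to 46788594, minus strand) was at 12, 12.4 and 12.5 in vehicle, 12.4, 12.9 and 12.8 at 1 µM, 12.3, 12.8 and 12.8 at 5 µM and 12, 12.9 and 12.7 at 10 µM. Number 6 was back at its vehicle value at 10 µM, and numbers 8 and 11 were 0.5 and 0.2 above theirs. SLC1A4 (ENSG00000115902.11, chromosome 2, 64988477 to 65023865, plus strand) was at 9.70, 10.5 and 10.5 in vehicle, 10.3, 11.2 and 11 at 1 µM, 10.4, 11.1 and 11 at 5 µM and 9.98, 10.9 and 10.8 at 10 µM. In the paired fit the adjusted p of SLC1A4 was 1.66e-04, 3.53e-05 and 0.002 at 1, 5 and 10 µM, and that of SLC1A5 was 0.00916, 0.00944 and 0.0421. SLC38A1 (13.3 to 14) and SLC38A2 (13.9 to 14.5) passed in neither fit. The 10 µM difference of SLC38A2 was 0.23, with a 95% interval of -0.07 to 0.54, and that of SLC38A1 -0.07 (-0.43 to 0.29). By number the 10 µM difference of SLC38A2 was 0 in number 6 and 0.4 and 0.3 in numbers 8 and 11. Without number 6, SLC38A2 was called higher at 1, 5 and 10 µM, by 0.30, 0.40 and 0.35 (adjusted p = 0.0298, 0.0045 and 0.00611).

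The windows before the RefSeq starts (GRCh38.p14) of 3 carriers called in the paired fit and not in the unpaired one are shown as examples of a motif match. SLC3A2, called likewise, holds a C/EBP-ATF match 36 bases after a start and is not shown. Carriers that passed in neither fit, such as SLC38A1 and SLC36A1, also hold a motif. The part of the motifs in the dose results was not tested. The capitals mark the C/EBP-ATF element TGATGNAAN in SLC1A5 and, read on the opposite strand, in SLC1A4, and the E-box CACGTG in SLC7A5. Those of SLC1A4 and SLC1A5 lie at RefSeq starts inside the GENCODE gene, and the SLC1A4 window runs 1 base past its start.
SLC1A4, chr2:64989149-64989399, plus strand: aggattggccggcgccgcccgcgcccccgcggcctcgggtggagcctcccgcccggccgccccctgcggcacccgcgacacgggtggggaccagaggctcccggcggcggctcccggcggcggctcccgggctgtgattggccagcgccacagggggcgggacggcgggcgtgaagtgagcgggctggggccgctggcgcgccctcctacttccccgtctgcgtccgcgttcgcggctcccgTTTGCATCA
SLC1A5, chr19:46784815-46785064, minus strand: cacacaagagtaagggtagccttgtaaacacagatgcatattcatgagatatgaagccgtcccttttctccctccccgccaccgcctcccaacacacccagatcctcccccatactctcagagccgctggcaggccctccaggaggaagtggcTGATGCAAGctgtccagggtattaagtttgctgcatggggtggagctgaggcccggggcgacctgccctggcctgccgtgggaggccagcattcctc
SLC7A5, chr16:87869508-87869757, minus strand: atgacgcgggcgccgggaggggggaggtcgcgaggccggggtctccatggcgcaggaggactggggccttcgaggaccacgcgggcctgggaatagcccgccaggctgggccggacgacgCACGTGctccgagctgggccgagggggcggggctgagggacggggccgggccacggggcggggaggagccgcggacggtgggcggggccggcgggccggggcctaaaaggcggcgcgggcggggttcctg

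Promoter windows, 250 bases before to 50 after a start, were found for 22 of the 27 transporters. Both strands were searched. The E-box CACGTG was present in 6 of the 22 (27.3%), namely SLC1A5, SLC36A1, SLC38A7, SLC43A1, SLC7A5 and SLC7A7, against 8.77% of all genes with windows. The C/EBP-ATF element TGATGNAAN was also in 6 (27.3%, against 4.45%): SLC1A3, SLC1A4, SLC1A5, SLC38A1, SLC3A2 and SLC7A1. The cAMP response element TGACGTCA was in 0 of the 22, against 2.25% of all genes. At so low a share, 0 of 22 says little, and only this full form was searched. The 22 transporters have 40 windows, and the 27305 genes have 35116. Per window the E-box was in 15% (against 7.26% of all windows) and the C/EBP-ATF element in 15% (against 3.61%), so the shares per gene also reflect the number of windows a gene has. These are matches of letters, not of factors, and SLC1A5 holds 2 of the motifs in separate windows. SLC6A6, SLC6A15, SLC3A1, SLC43A3 and SLC7A2 have no window in the table used.

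Of the 2 glutamate and aspartate carriers, SLC1A1 was higher in the paired fit at every dose and SLC1A3 passed in neither fit. Without number 6 both were called higher at every dose. SLC1A1 (ENSG00000106688.12) also takes up cysteine. Its values were 9.60, 8.74 and 8.89 in vehicle, 9.84, 9.27 and 9.42 at 1 µM, 9.64, 9.51 and 9.63 at 5 µM and 9.91, 9.53 and 9.63 at 10 µM. Vehicle library 6 lay within the range of the treated libraries. The 10 µM difference was 0.61 (adjusted p = 0.0543, paired fit 0.00141), 0.31 in number 6 and 0.79 and 0.74 in the others. SLC1A3, the glutamate carrier known from glia, had 10.5, 8.46 and 8.27 in vehicle and 10.0, 9.22 and 8.83 at 10 µM. Its 10 µM difference was -0.50 in number 6 and 0.76 and 0.56 in numbers 8 and 11, so the direction was not shared. Without number 6 the difference of SLC1A3 was 0.66 (adjusted p = 0.0132). The glycine carrier SLC6A9 was at 6.90, 7.66 and 7.57 in vehicle and at 7.19, 8.06 and 7.96 at 10 µM. Its difference of 0.36 passed in the paired fit (adjusted p = 0.0143) but not in the unpaired one, as did that at 5 µM (adjusted p = 0.019, paired). On the other strand SLC1A1 overlaps SPATA6L over 34084 bp and SLC6A9 overlaps CCDC24 over 5029 bp. SLC1A3 overlaps antisense entries over 22121 and 13329 bp. Reads of these genes may therefore be mixed as well.

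Of the 4 lysosomal and proton-coupled carriers, SLC36A4 (ENSG00000180773.15, chromosome 11, 93144171 to 93197964, minus strand) fell. It moves proline and tryptophan. Its values were 10.2, 10.0 and 10.2 in vehicle, 9.79, 9.82 and 9.83 at 1 µM, 9.72, 9.79 and 9.80 at 5 µM and 9.67, 9.62 and 9.80 at 10 µM. All treated libraries lay below all vehicle libraries. SLC36A4 fell by 0.36 ± 0.08 at 5 µM (adjusted p = 0.0106) and by 0.44 ± 0.08 at 10 µM (adjusted p = 0.00257), 1.38-fold in counts, and both calls held in all 12 single omissions. Its 1 µM difference of -0.32 passed in the paired fit (adjusted p = 0.0126) but not in the unpaired one. SLC38A9, the arginine-sensing carrier of the lysosome that signals to mTORC1, was 0.27 higher at 5 and at 10 µM, a difference that passed in the paired fit (adjusted p = 0.0163 and 0.0128) but not in the unpaired one. SLC38A9 overlaps DDX4 on the other strand. SLC36A1, which exports small amino acids from the lysosome, and the lysosomal glutamine carrier SLC38A7 passed in neither fit, with 10 µM differences of -0.16 and 0.16.

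Among carriers with other or unsettled substrates, SLC38A10 (ENSG00000157637.13, chromosome 17, 81245000 to 81295547, minus strand) rose. Its values were 10.7, 11.1 and 11.1 in vehicle, 11.2, 11.5 and 11.4 at 1 µM, 11.4, 11.4 and 11.6 at 5 µM and 11.4, 11.8 and 11.6 at 10 µM. Every treated library was above the vehicle range. SLC38A10 rose by 0.50 ± 0.13 at 5 µM (adjusted p = 0.0269) and by 0.63 ± 0.13 at 10 µM (adjusted p = 0.00568, 1.56-fold). The 5 µM call was lost without vehicle library 6 or any 5 µM library (adjusted p at most 0.0983), and the 10 µM call held in all 12 omissions. Its 1 µM difference of 0.40 passed in the paired fit (adjusted p = 0.00854). SLC43A3, which carries purine nucleobases rather than amino acids, was at 10.6, 10.9 and 10.8 in vehicle and at 10.0, 10.5 and 10.6 at 10 µM. It was lower in the paired fit at 5 µM (-0.33, adjusted p = 0.00795) and at 10 µM (-0.40, adjusted p = 0.00194). SLC43A3 shares 17106 bp with another protein-coding entry on its strand. SLC38A6 stayed between 8.69 and 9.10 and passed in neither fit.

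The carriers were also compared between the highest and the lowest dose of the drug. Between 10 and 1 µM limma called 0 of the 27, against 2.17% of all genes higher and 2.54% lower. SLC6A6 and SLC43A3 had an unadjusted p under 0.05, and limma on voom-modelled counts also called 0. The paired fit called 3 higher (11.1%, against 9.46%) and 3 lower (11.1%, against 11.4%), near the shares of all genes. Higher at 10 than at 1 µM were SLC6A6 by 0.87 (adjusted p = 2.43e-05), SLC7A2 by 0.53 (0.00377) and SLC3A2 by 0.40 (0.00751). Lower were SLC6A15 by -0.53 (2.93e-04), SLC43A3 by -0.40 (0.00524) and SLC1A4 by -0.27 (0.0131). SLC1A4 thus stood 0.60 above vehicle at 1 µM and 0.33 at 10 µM, while SLC6A6 stood 0.03 and 0.90 above it. The means of SLC1A5 and SLC7A5 were also highest at 1 µM, but their differences between 10 and 1 µM, -0.17 and -0.07, passed in neither fit.

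**Figure D4:**
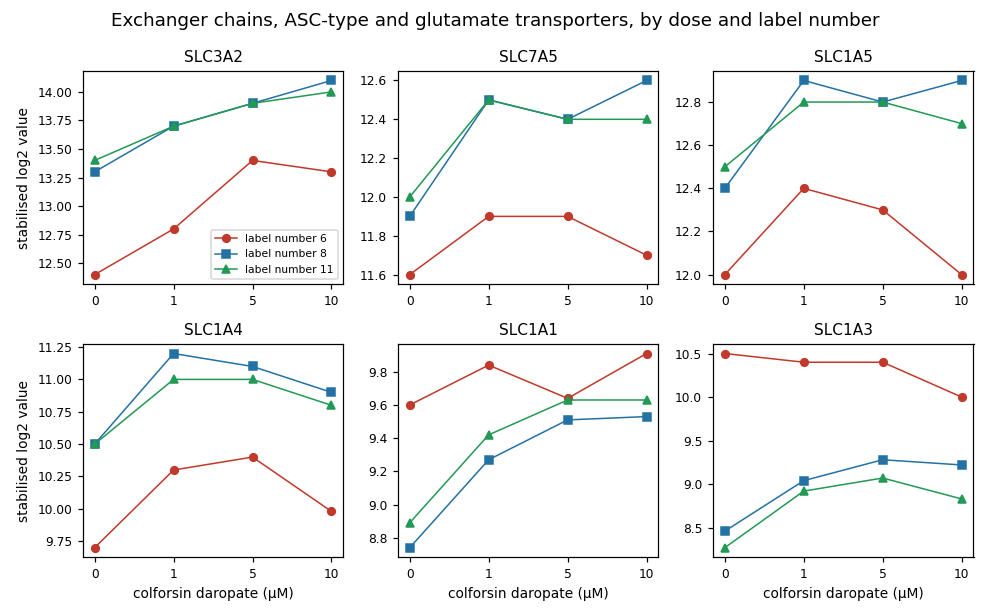
Stabilised log2 values of 6 transporters by dose (evenly spaced) and label number (red circles 6, blue squares 8, green triangles 11), each panel on its own vertical scale. Number 6 is the lowest line in SLC3A2, SLC7A5, SLC1A5 and SLC1A4 and the highest in SLC1A1 and SLC1A3. In SLC1A3 it runs from 10.5 in vehicle to 10.0 at 10 µM while the others go up.

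At matched dose, libraries of number 6 differed from those of numbers 8 and 11 in 20 of the 27 transporters. In this fit the libraries of a number at the different doses stand as its replicates. The adjusted p therefore measures agreement over doses, not the spread between numbers. Lower in number 6 were 15 (55.6%, against 19.9% of all genes), among them SLC6A9 by -0.81, SLC1A4 and SLC3A2 by -0.78, SLC6A15 by -0.74, SLC3A1 by -0.58, SLC7A5 by -0.56 and SLC1A5 by -0.55. Higher were 5 (18.5%, against 19.1%), namely SLC1A3 by 1.44, SLC6A6 and SLC7A2 by 0.60, SLC1A1 by 0.42 and SLC38A6 by 0.18. The adjusted p of these carriers other than SLC38A6 was at most 0.00294. The call of SLC38A6 (adjusted p = 0.0486) was lost without any of the 9 treated libraries or vehicle 8 (at most 0.17), and that of SLC38A2 (-0.21, adjusted p = 0.049) without any treated library (at most 0.251). That of SLC7A1 (-0.18, adjusted p = 0.0161) was lost without vehicle 6 or 1 µM 6 (at most 0.0912). For SLC3A2 the gap between numbers was as large as its 10 µM difference, and for SLC1A3 it was larger than the 10 µM difference in any number. Vehicle library 6 was also the shallowest of the 12. What the number marks, and its part in the dose results, was not tested.

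**Figure D5:**
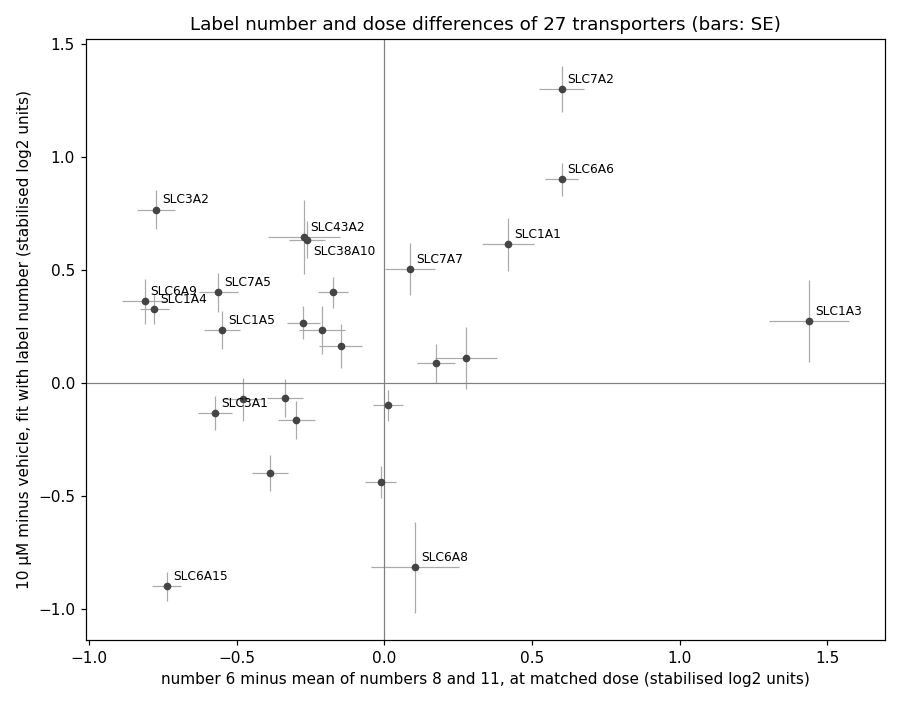
For each of the 27 transporters, the horizontal axis gives number 6 minus the mean of numbers 8 and 11 at matched dose, and the vertical axis 10 µM minus vehicle, both in stabilised log2 units from the fit with dose and number. Grey bars are SE. SLC3A2 lies at upper left (-0.78 and 0.77), SLC6A15 at lower left (-0.74 and -0.90) and SLC7A2 at upper right (0.60 and 1.30).

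The cystine and glutamate exchanger SLC7A11, the partner of SLC3A2 that the symbol rule leaves out, had values of 11.9, 13 and 13.2 in vehicle and 14.8, 15.1 and 15 at 10 µM. It rose by 2.27 (adjusted p = 0.00167), 4.53-fold in counts. Among 13 other amino acid carriers tested, SLC7A11 included, 2 were higher (15.4%, against 11.2% of all genes) and 2 lower (15.4%, against 11.4%) at 10 µM. SLC25A44, the mitochondrial carrier of branched-chain amino acids, rose by 0.23. SLC16A10, a carrier of aromatic amino acids with values of at most 6.32, fell by 0.74, and the ornithine carrier SLC25A15 fell by 0.50. In the paired fit the counts were 5 (38.5%, against 18.7%) and 3 (23.1%, against 19.7%).

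Genes that make, use or sense amino acids were taken from 3 further lists. Of 24 enzymes of glutamine, asparagine, serine and arginine metabolism, 1 was called at 10 µM, lower (4.17%, against 11.4% of all genes): glutamate dehydrogenase GLUD1 fell by 0.53 (adjusted p = 6.63e-04). With the pairing, 2 were higher (8.33%, against 18.7%) and 5 lower (20.8%, against 19.7%). Of 38 genes of amino acid sensing to mTORC1, 6 were higher (15.8%, against 11.2%) and 8 lower (21.1%, against 11.4%). Paired by number, 9 were higher (23.7%, against 18.7%) and 11 lower (28.9%, against 19.7%). RRAGD, a Rag GTPase, had the largest difference and fell by 1.89 (adjusted p = 0.00501), 4.61-fold in counts. The arginine sensor CASTOR1 rose by 0.75 (adjusted p = 0.00705) from a low level. FNIP2, the leucine sensor SESN1 and SEH1L were tied and each fell by 0.57, with adjusted p-values of 0.0061, 0.0091 and 0.00301. Of 16 genes of the GCN2 and ATF4 axis, 1 was higher and 1 lower (6.25% each, below the 11.2% and 11.4% of all genes). In the paired fit 3 were higher (18.8%, against 18.7%) and 4 lower (25%, against 19.7%), near the share of all genes. The mTORC1 inhibitor DDIT4 rose by 1.20 (adjusted p = 0.00589) and the kinase GCN2, encoded by EIF2AK4, fell by 0.20 (adjusted p = 0.0391). ATF4 and its textbook target ASNS, both in this list, were picked for naming after their values were seen. The rest of the list is not described gene by gene. ATF4 was 0.20 higher at 10 µM, which passed in the paired fit (adjusted p = 0.0243) but not in the unpaired one. ASNS had a difference of -0.16 with a 95% interval of -1.25 to 0.94 and passed in neither fit.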

How the data were processed

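RNA of 12 libraries was measured by sequencing. The authors deposited variance-stabilised values on a log2 scale. The submitters' processing notes name DESeq2 and the build GRCh38 (hg38). Aligner, counting tool, strand setting and annotation release are not given in the sources used here. 4 rows that name no gene (for example 36.2% to 41.4% of reads with no feature) were left out.

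Members and gene lists were chosen with earlier results of these data known. Each transporter past the limit was described, as were up to 4 called genes with the largest difference of each further list and SLC7A11. Values were tested with limma 3.58.1 in R 4.3.3 (variance trend, dose groups, 12 libraries, 17767 genes that exceeded the floor by over 1 in 3 or more libraries), two-sided, with Benjamini-Hochberg adjustment over all genes and calls at an adjusted p under 0.05. The model without the label number was tested on simulated data with independent noise in each library. That simulation held no difference between label numbers, so it does not cover those seen here. Label numbers were taken to pair libraries because deviations of all 18 same-number pairs correlated (r = 0.316 to 0.777, against -0.711 to 0.57 in 36 other pairs). Normalised counts were recovered from the steps of low values, of which 100% of 74712 were whole reads within 0.0075 on the stabilised scale (41.3% with shifted depths). Those of abundant genes carry the rounding step of 0.1. Promoters came from RefSeq (GRCh38.p14) and gene models from GENCODE 29.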

Additional observations from a re-analysis of the deposited data

How the results depend on the processing

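No difference of a transporter changed sign under an alternative while called. Counts of called transporters, higher and lower, were with the replicate block 9 and 2 at 1 µM, 13 and 4 at 5 µM, 13 and 4 at 10 µM and 3 and 3 for 10 against 1 µM. The same block on voom-modelled recovered counts, chosen after seeing the data, gave 9 and 2, 13 and 4, 13 and 4, and 3 and 3. Numbers 8 and 11 alone with the block gave 11 and 1, 15 and 4, 14 and 6, and 4 and 3. The shares of all genes called in this fit, in the block on voom-modelled counts and in the pairs are not given here. Their counts are therefore not set against the whole table. Pairs chosen after seeing the data gave 1 higher at 1 µM (numbers 6 and 8), and for 10 against 1 µM 1 and 2 (6 and 8) and 1 higher (6 and 11). Library weights gave 9 and 2, 14 and 5, 10 higher at 10 µM, and 1 and 1, while 15.1% and 13.8% of all genes were called at 1 µM, 21.6% and 21.5% at 5 µM, 20.4% and 21.2% at 10 µM and 7.24% and 8.31% for 10 against 1 µM. Quantile normalization gave 1 lower at 1 µM (0.76% of all genes). Where only some counts of a fit are named, the others are not given here and need not be 0. Leaving out 1 library gave 0 to 2 higher at 1 µM, 0 to 5 higher and 1 to 2 lower at 5 µM, and 3 to 7 and 1 to 3 at 10 µM. Leaving out 1 library or a whole number gave 0 to 11 higher and 0 to 1 lower at 1 µM, 0 to 15 and 0 to 4 at 5 µM, 0 to 14 and 0 to 5 at 10 µM, 0 to 3 and 0 to 2 for 10 against 1 µM, and 3 to 5 and 11 to 15 for number 6 against 8 and 11. The share of all genes called at 10 µM moved as well, from 22.6% to 33.4%, 3.37% and 5.41% without number 6, 8 or 11. Such shares for single libraries are not given here. The cause of these moves was not tested. A limit on low values set at none or more strictly, and voom without the block, kept every count within 1.5 times.

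Rounding to steps of 0.1 bounds what the 14 transporters at 10 or above in every library can show, and the scaling of libraries before deposit hides changes in total RNA per cell. SLC6A4, at up to 6.17, is the carrier closest to the floor.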
